A study of Mus musculus with 6 samples.

Results

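The genes described here are 7 matrix metalloproteinase genes (Mmp2, Mmp3, Mmp9, Mmp11, Mmp13, Mmp14 and Mmp15), 2 genes of their tissue inhibitors (Timp2 and Timp3) and the pentraxin gene Ptx3. They were taken by symbol from the 6 deposited gene tables, which hold 21937 gene symbols, and all 10 were found, with 1 row each. The set was selected on the read shares of these same libraries, with the lower H3K4 of Mmp14 and Ptx3 in mK4 already known, so all values below are a description and carry no test. The assay was ChIP-seq, the sequencing of chromatin fragments pulled down with an antibody, in mK4 and mK3, a pair of immortalized mouse lines from the E11.5 metanephros, the embryonic kidney, both of strain CD1. In the field, mK4 is known as a model of kidney mesenchyme after induction and mK3 as one of mesenchyme before it. For mK4 and for mK3 there was 1 H3K4 library, 1 H3K27 library (antibody from Active Motif, per the labels) and 1 library of input chromatin without antibody. The labels do not name the degree of methylation, and a commercial service made the libraries. No library was replicated, so no p-value is given, and all intervals are 95% counting intervals, which leave out any spread between cultures.

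Matrix metalloproteinases are zinc enzymes that cut collagens, laminins and other proteins of the extracellular matrix, and the Timp proteins bind and block them. Most are secreted as inactive precursors, whereas Mmp14 and Mmp15 sit in the cell membrane. Mmp14, held together with Timp2 at the cell surface, activates the precursor of Mmp2, a gelatinase of mesenchymal cells. Ptx3 is a secreted long pentraxin of innate immunity that also takes part in building hyaluronan-rich matrix. Trimethylation of histone H3 at lysine 4 marks mainly the promoters of active genes, while lysine 27 trimethylation marks genes that Polycomb proteins keep silent.

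The files hold reads over exons, and the summed counts per library lay between 481235 and 714011 for the 4 ChIP libraries and were 386695 for the mK4 input and 311409 for the mK3 input. The catalogue number given in the labels for the H3K4 antibody, ab8898, is known as the vendor's number for an antibody against trimethylated lysine 9, so which methylation these libraries hold cannot be told apart from the labels, and "H3K4" below means the library labelled so. Genes were divided into 5 groups of about equal size by the CpG content of the sequence around their start. In the richest group (2940 genes) the H3K4 reads were 1.04 times the input share in mK4 and 1.05 times in mK3. In the poorest group (2942 genes) these values were 0.918 in mK4 and 0.884 in mK3. The H3K27 reads ran the other way, at 0.795 in mK4 and 0.808 in mK3 in the richest group, and at 1.36 in mK4 and 1.37 in mK3 in the poorest. Of 9 marker genes of metanephric mesenchyme, none reached 2-fold over input for H3K4 in either line, a level that 3.69% of all genes reached in mK4 and 4.94% in mK3. Of the marker genes of other cell types, H3K4 marked 0 of 7 for the ureteric bud and 0 of 4 for blood in either line. It marked 1 of 5 for the renal stroma in mK4 (Foxd1) and 0 in mK3, 1 of 5 for endothelium in mK4 (Tek) and 0 in mK3, and 1 of 15 housekeeping genes in mK4 and 2 in mK3. Foxd1 lay near the 2-fold cut in both lines, at a log2 ratio to input of 1.02 in mK4 and 0.96 in mK3. It had 131 H3K4 reads in mK4 and 95 in mK3. At Tek the log2 ratio was 1.11 in mK4 and -0.43 in mK3, with 10 input reads in mK4 and 18 in mK3. These libraries measure chromatin and not RNA, so the identity of the lines was not tested by them.

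RefSeq sequences around the annotated start, from 250 bases before it to 50 after it (build GRCm38.p6), were on hand for 8 of the 10 genes, all but Mmp2 and Mmp9. These 5 are shown because the results turn on their genes: Mmp14, Ptx3 and Timp2 had the largest H3K4 differences between the lines, Mmp15 had H3K27 over input in both lines, and Mmp13 had it in mK4. Capitals mark matches on either strand to TGANTCA (the AP-1 site), TATAAA (the TATA box) and GGGCGG (the GC box).
Mmp14, chr14:54431348-54431647, plus strand: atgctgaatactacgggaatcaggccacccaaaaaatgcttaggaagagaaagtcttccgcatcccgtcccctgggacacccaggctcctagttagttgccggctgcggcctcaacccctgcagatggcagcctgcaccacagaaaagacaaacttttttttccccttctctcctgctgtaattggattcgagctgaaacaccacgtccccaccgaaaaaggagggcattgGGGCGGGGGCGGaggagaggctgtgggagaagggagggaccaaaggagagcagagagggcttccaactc
Ptx3, chr3:66219637-66219936, plus strand: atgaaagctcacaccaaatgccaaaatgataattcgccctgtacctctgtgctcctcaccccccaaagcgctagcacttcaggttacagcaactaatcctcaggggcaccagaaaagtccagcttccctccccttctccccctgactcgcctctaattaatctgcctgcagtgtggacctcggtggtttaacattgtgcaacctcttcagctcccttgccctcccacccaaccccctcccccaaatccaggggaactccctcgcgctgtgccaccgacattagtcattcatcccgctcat
Timp2, chr11:118355362-118355661, minus strand: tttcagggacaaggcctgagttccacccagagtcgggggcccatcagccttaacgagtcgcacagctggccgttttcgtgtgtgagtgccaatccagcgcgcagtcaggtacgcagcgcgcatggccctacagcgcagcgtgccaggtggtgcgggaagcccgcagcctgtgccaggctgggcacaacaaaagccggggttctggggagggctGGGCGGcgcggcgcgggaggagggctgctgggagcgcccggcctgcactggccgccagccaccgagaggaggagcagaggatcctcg
Mmp15, chr8:95352046-95352345, plus strand: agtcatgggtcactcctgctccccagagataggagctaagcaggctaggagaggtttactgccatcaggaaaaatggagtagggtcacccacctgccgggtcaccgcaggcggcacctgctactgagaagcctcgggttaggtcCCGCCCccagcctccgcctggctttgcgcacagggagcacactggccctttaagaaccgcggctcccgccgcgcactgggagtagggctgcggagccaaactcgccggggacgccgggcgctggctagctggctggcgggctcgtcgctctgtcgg
Mmp13, chr9:7272264-7272563, plus strand: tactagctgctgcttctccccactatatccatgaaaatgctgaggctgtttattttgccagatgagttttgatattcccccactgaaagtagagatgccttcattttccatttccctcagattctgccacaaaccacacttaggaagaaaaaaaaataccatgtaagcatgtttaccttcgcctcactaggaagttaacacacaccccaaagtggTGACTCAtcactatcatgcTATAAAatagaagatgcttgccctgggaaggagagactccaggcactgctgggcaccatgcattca
The Mmp14 window held 2 GC boxes side by side, from -19 to -14 and from -13 to -8, counted from the annotated start. The Timp2 window held 1 GC box, as did that of Mmp15, and the Ptx3 window held none of the 3 motifs. Mmp13 had an AP-1 match (TGACTCA, -35 to -29) and a TATA box (-16 to -11), and the window of Mmp3 held both motifs too. Of all 32851 start windows, 7.81% held TGANTCA, 13.6% held TATAAA and 35.7% held GGGCGG. The ratio of observed to expected CpG was 0.0722 for Mmp13 and 0.0845 for Mmp3, at percentiles 9.38 and 11.2 of all windows. It was 0.425 for Mmp14, 0.431 for Ptx3, 0.573 for Mmp11, 0.674 for Mmp15, 0.714 for Timp3 and 0.718 for Timp2, against a median of 0.384. The motifs and CpG ratios describe letters only, and just the last 50 bases of each window lie in an exon that could hold counted reads.

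Fewer H3K4 reads in mK4 were found at the membrane protease gene Mmp14, the inhibitor genes Timp2 and Timp3 and the pentraxin gene Ptx3, while the gelatinase gene Mmp9 had more. Read shares were compared between the lines, and the counting interval of the ratio lay wholly below 1 at these 4 of the 10 genes, as at 10.7% of all genes, and wholly above 1 at 1, as at 9.29% of all genes. A gene was called marked when its reads, scaled to equal library totals with 5 added, were at least 2-fold its own input, and lower or higher if either line was marked and the lines differed at least 2-fold. By this rule 2 of the 10 genes, Mmp14 and Ptx3, had lower H3K4 in mK4, against 0.392% of all genes, and 0 had higher H3K4, against 0.424%. Whether marked or not, 3 of the 10 (these 2 and Timp2) were at least 2-fold lower, against 2.99% of all genes, and 0 at least 2-fold higher, against 4.51%. The median log2 ratio of the 10 genes was -0.42, with 7 below 0, beside a median of -0.02 over all genes, of which 51.0% lay below 0.

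**Figure D1:**
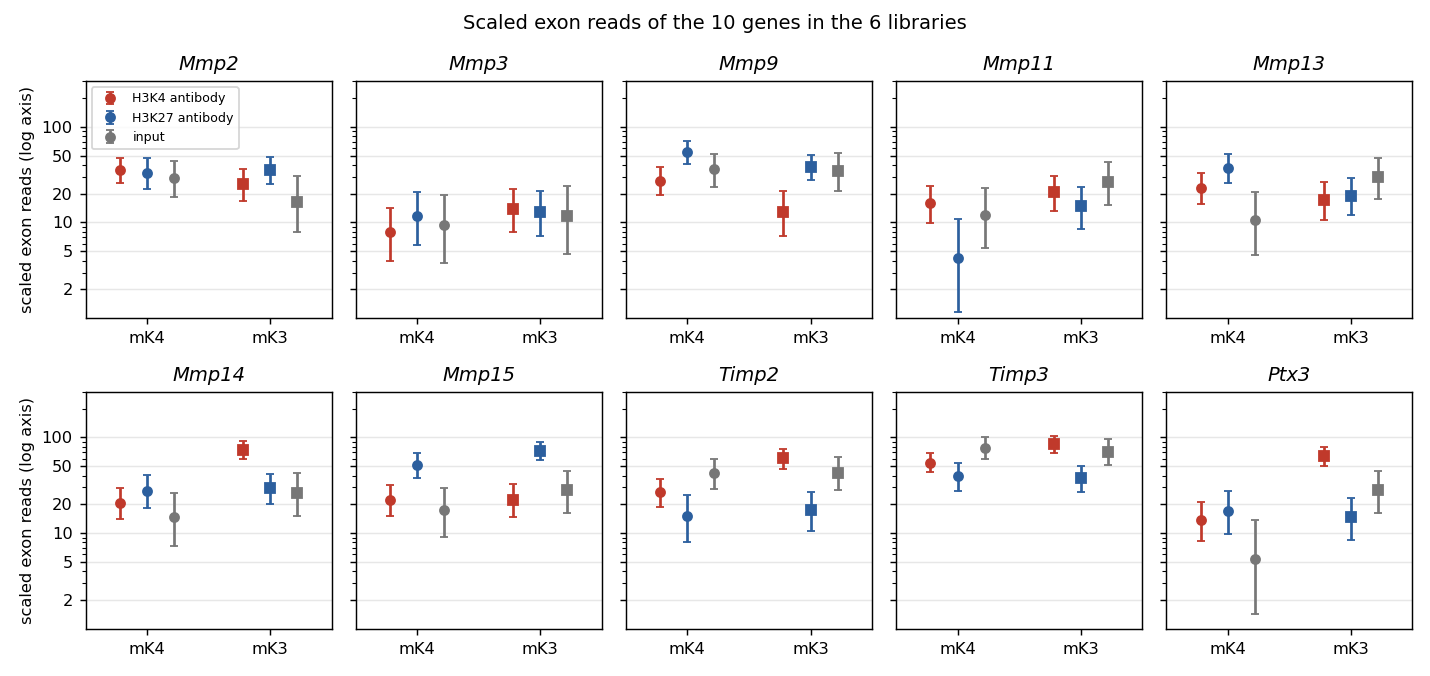
Exon reads scaled to equal library totals (log axis) at each of the 10 genes, with mK4 left (circles) and mK3 right (squares) in each panel. Red is the H3K4 antibody, blue the H3K27 antibody and grey the input, and bars are 95% Poisson counting intervals of 1 library each. The H3K4 points of Mmp14 and Ptx3 stand at 20.9 and 13.7 in mK4, below 74.2 and 63.8 in mK3.

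Mmp14, which encodes the membrane-bound activator of Mmp2 and lies on chromosome 14, had 29 H3K4 reads in mK4 and 86 in mK3. Its H3K27 reads were 26 in mK4 and 34 in mK3, and its input reads 11 in mK4 and 16 in mK3. H3K4 in mK3 stood above the other 5 libraries. The RPKM of H3K4 (the authors' reads per exon kilobase, scaled to the library total) was 15.6 in mK4, at percentile 61.3 of all genes, and 55.4 in mK3, at percentile 97.5. The H3K4 share was 3.56-fold lower in mK4 (2.31 to 5.62). For H3K27 the ratio of mK4 to mK3 was 0.942 (0.543 to 1.62) and for the input 0.554 (0.232 to 1.27). The whole of chromosome 14 had an input ratio of 0.644 (0.628 to 0.66), with 0.644 for H3K4 and 0.641 for H3K27, and its part in the Mmp14 difference was not tested. Set against its own input, H3K4 of Mmp14 was 1.43-fold over input in mK4 (0.692 to 3.17) and 2.81-fold in mK3 (1.64 to 5.14). The ratio of these ratios, mK4 over mK3, was 0.511, with an interval of 0.196 to 1.37 that includes 1.

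The genes beside Mmp14 also had less H3K4 in mK4. All 10 neighbours, 5 on each side from Abhd4 to Jub, had H3K4 ratios below 0 on the log2 scale, between -1.16 and -0.41. Summed, they had 401 H3K4 reads in mK4 and 580 in mK3, a ratio of 0.576 (0.506 to 0.656). Mmp14 itself lay a further 2.05-fold below its neighbours (1.3 to 3.3). For H3K27 the neighbours fared differently from Mmp14. They had 127 reads in mK4 and 330 in mK3, a ratio of 0.474 (0.383 to 0.584), and the ratio at Mmp14 was 1.98-fold that of its neighbours (1.1 to 3.56). The input of the same neighbours had a ratio of 0.705 (0.567 to 0.875).

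Ptx3, on chromosome 3, had 19 H3K4 reads in mK4 and 74 in mK3, and an H3K4 RPKM of 13.8 in mK4 against 64.6 in mK3, the highest of the 10 genes. Its input reads were 4 in mK4 and 17 in mK3, and its H3K27 reads 16 in mK4 and 17 in mK3. H3K4 and input were thus both low in mK4 while H3K27 was level in reads. The H3K4 share was 4.67-fold lower in mK4 (2.79 to 8.19) and the input share 5.28-fold lower (1.72 to 21.6). H3K4 was 2.57-fold over input in mK4 (0.855 to 10.4) and 2.28-fold in mK3 (1.33 to 4.12), so that the ratio of ratios was 1.13 (0.315 to 5.15). The width of this interval comes from the 4 input reads in mK4.

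The neighbours of Ptx3 had H3K4 and input ratios near 1. From 4931440P22Rik to Lxn, the 10 genes beside it had 395 H3K4 reads in mK4 and 314 in mK3 (ratio 1.05, 0.902 to 1.22) and 193 input reads in mK4 and 143 in mK3 (ratio 1.09, 0.871 to 1.36). Ptx3 lay 4.89-fold below them for H3K4 (2.85 to 8.77) and 5.71-fold below them for input (1.81 to 23.8). Over the whole of chromosome 3 the input share was 1.84-fold higher in mK4 (1.8 to 1.88). In the RefSeq annotation Ptx3 overlaps Veph1, which had 22 H3K4 reads in mK4 and 30 in mK3 and 19 input reads in each line. Timp2 overlaps Cep295nl there, Timp3 overlaps Syn3 and Mmp2 overlaps the long noncoding RNA Gm45472. How reads over overlapping genes were assigned is not given in the sources used here.

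**Figure D2:**
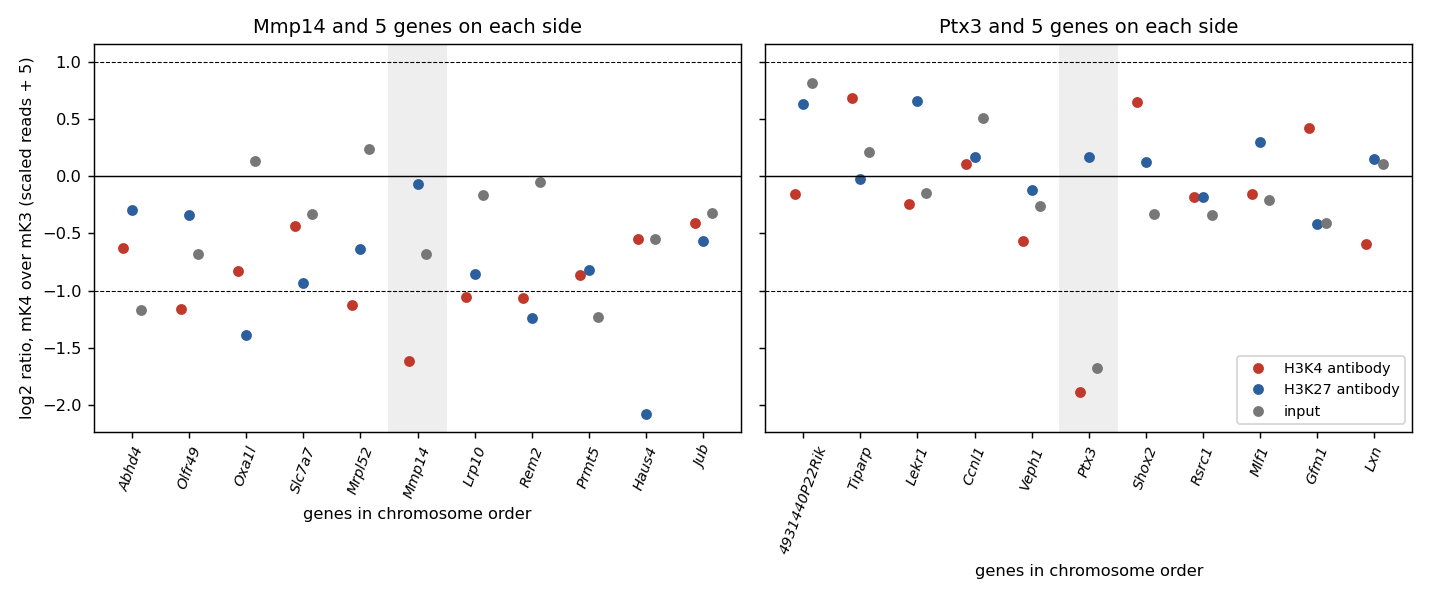
Log2 ratio of scaled reads plus 5, mK4 over mK3, at Mmp14 (left panel) and Ptx3 (right panel), shaded, and at 5 genes on each side in chromosome order. Red is H3K4, blue H3K27 and grey input, and dashed lines mark a 2-fold difference. The H3K4 points of all 10 neighbours of Mmp14 lie below 0, whereas those of Ptx3 lie on both sides of it, between -0.59 and 0.68.

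Timp2, whose protein both blocks metalloproteinases and links Mmp14 to the precursor of Mmp2, had 37 H3K4 reads in mK4 and 70 in mK3 with about equal input, at 32 reads in mK4 and 26 in mK3. Its H3K4 share was 2.27-fold lower in mK4 (1.5 to 3.48), while the input ratio was 0.991 (0.572 to 1.73). Relative to input, H3K4 at Timp2 was 2.24-fold lower in mK4 (1.11 to 4.55). Timp2 was not called by the rule above because its H3K4 was marked in neither line, at 0.626-fold its input in mK4 and 1.41-fold in mK3. Its 10 neighbours on chromosome 11 had an H3K4 ratio of 0.887 (0.771 to 1.02), and Timp2 lay 2.01-fold below them (1.3 to 3.16).

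Timp3, which encodes the inhibitor that binds to the matrix itself, had 76 H3K4 reads in mK4 and 99 in mK3, with 59 input reads in mK4 and 43 in mK3. The H3K4 share was 1.56-fold lower in mK4 (1.15 to 2.14), and 1.72-fold lower relative to input (1.02 to 2.92). Its neighbours on chromosome 10 had an H3K4 ratio of 0.659 (0.576 to 0.755), and Timp3 had 0.971 times that ratio (0.689 to 1.36). The Timp genes were the only 2 of the 10 whose H3K4 ratio lay below that of their input beyond counting error, a state found at 3.66% of all genes. Mmp13 was the only one above, a state found at 3.64%.

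At Mmp9, the second gelatinase gene and a gene of many invasive and inflammatory cells, H3K4 reads were 38 in mK4 and 15 in mK3, with 27 input reads in mK4 and 21 in mK3. The H3K4 share was 2.11-fold higher in mK4 (1.14 to 4.13), but H3K4 lay at or below input in both lines, at 0.762-fold in mK4 (0.453 to 1.3) and 0.374-fold in mK3 (0.179 to 0.76). Relative to input the ratio between the lines was 2.03 (0.826 to 5.08). The neighbours of Mmp9 on chromosome 2 had an H3K4 ratio of 1.62 (1.37 to 1.92) and an input ratio of 1.38 (1.1 to 1.73). The H3K4 ratio of Mmp9 was 1.3-fold that of its neighbours, with an interval of 0.682 to 2.61 that includes 1. Mmp2, the partner of Mmp14 and Timp2, had 49 H3K4 reads in mK4 and 29 in mK3 (1.41-fold higher, 0.872 to 2.31) and 22 input reads in mK4 and 10 in mK3. Of the 3 genes of this activation complex, Mmp14 and Timp2 therefore had lower H3K4 shares in mK4, and the interval of Mmp2 included 1.

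The other proteases had H3K4 intervals that included 1. Mmp11, a stromelysin of stromal cells, had 22 H3K4 reads in mK4 and 24 in mK3, Mmp15, a membrane-type protease, had 31 in mK4 and 26 in mK3, and Mmp3, a stromelysin, had 11 in mK4 and 16 in mK3. Mmp13, a collagenase of cartilage and bone, had 32 H3K4 reads in mK4 and 20 in mK3 (1.33-fold higher, 0.74 to 2.46).

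**Figure D3:**
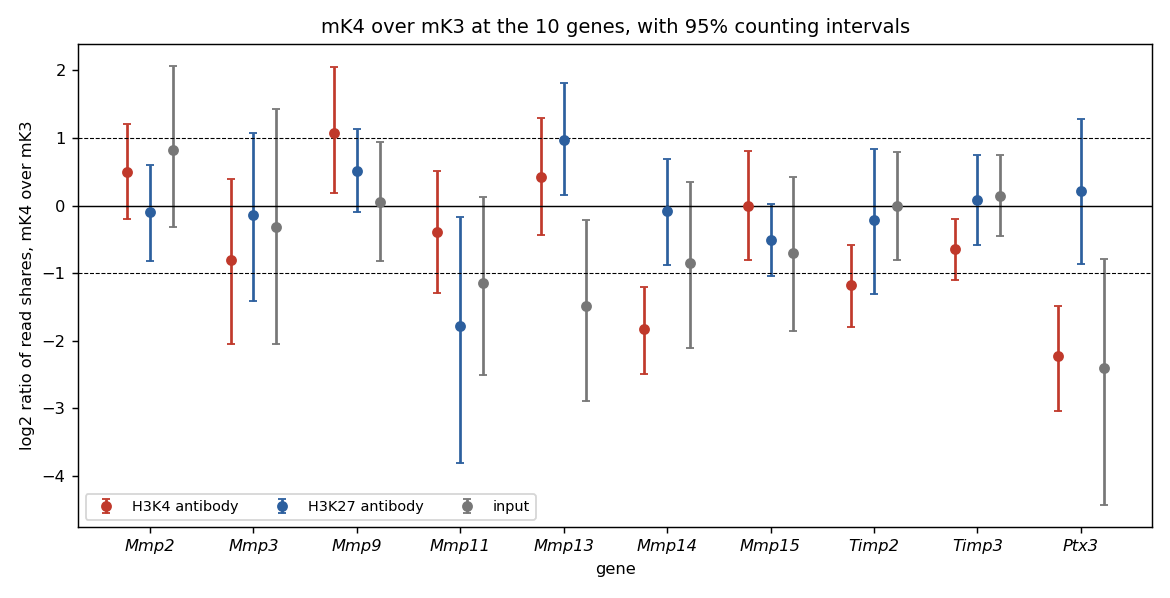
Log2 ratio of read shares, mK4 over mK3, for the H3K4 antibody (red), the H3K27 antibody (blue) and the input (grey) at the 10 genes, with 95% counting intervals and dashed lines at 2-fold. The H3K4 intervals of Mmp14, Timp2, Timp3 and Ptx3 lie below 0 and that of Mmp9 above it, and the input of Ptx3 and Mmp13 lies below 0 too.

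The H3K27 libraries showed a different order of the genes. Relative to input, Mmp15 was high in both lines and the Timp genes were low in both. No gene of the 10 was called higher or lower in mK4 for H3K27 (0.889% and 0.934% of all genes were), and the median log2 ratio was -0.08, beside -0.06 over all genes. Marked or not, 1 gene (Mmp11) was at least 2-fold lower, against 3.54% of all genes, and 0 were 2-fold higher, against 3.73%. The counting interval of the ratio lay below 1 at 1 gene, Mmp11 (8.25% of all genes), and above 1 at 1, Mmp13 (7.56%). The marked rule was met by 3 of the 10 genes in mK4 (Mmp13, Mmp15 and Ptx3), against 9.06% of all genes, and by 1 in mK3 (Mmp15), against 10.3%. For H3K4 it was met by 0 genes in mK4, against 3.69% of all genes, and by 2 in mK3 (Mmp14 and Ptx3), against 4.94%. Counting intervals of H3K4 over input lay below 1 at 1 gene in mK4 (Timp3, 7% of all genes) and 1 in mK3 (Mmp9, 7.07%). They lay above 1 at 0 genes in mK4 (6.61% of all genes) and at 2 in mK3 (6.21%). For H3K27 they lay below 1 at 2 genes in mK4 (11.4%) and 2 in mK3 (11%), and above 1 at 3 in mK4 (12.1%) and 2 in mK3 (11.3%).

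Mmp15 had 48 H3K27 reads in mK4 and 84 in mK3, beside 13 input reads in mK4 and 17 in mK3. H3K27 was 2.97-fold over input in mK4 (1.58 to 5.97) and 2.59-fold in mK3 (1.53 to 4.66). It was the only 1 of the 10 genes marked by H3K27 in both lines, as were 2.85% of all genes, and the only 1 with an interval above 1 in both (4.96%). Its H3K27 RPKM was 23.3 in mK4, at percentile 80.2, and 33.0 in mK3, at percentile 94.5. That of Mmp9 was 33.6 in mK4, at percentile 93.9, and 23.5 in mK3, at percentile 81.3. The H3K27 ratio of mK4 to mK3 at Mmp15 was 0.704 (0.483 to 1.02), with 0.616 (0.275 to 1.35) for the input. The 10 neighbours of Mmp15 had an H3K27 ratio of 1.23 (1.02 to 1.49), and Mmp15 lay 1.75-fold below them (1.15 to 2.68). For the input, Mmp15 had 0.717 times the ratio of its neighbours (0.308 to 1.63). Mmp2, its neighbour by family on chromosome 8, had 31 H3K27 reads in mK4 and 41 in mK3, 1.13-fold over input in mK4 (0.635 to 2.05) and 2.15-fold in mK3 (1.06 to 4.82), and was marked in neither line on the scaled reads plus 5.

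Both inhibitor genes had fewer H3K27 reads than their input share. Timp2 had 14 H3K27 reads in mK4 and 20 in mK3, 2.84-fold below input in mK4 (1.48 to 5.77) and 2.48-fold below it in mK3 (1.33 to 4.68). Timp3 had 37 in mK4 and 43 in mK3, 1.98-fold below input in mK4 (1.29 to 3.08) and 1.9-fold below it in mK3 (1.22 to 2.98). These 2 genes were the only ones of the 10 with an interval below 1 in both lines, as were 3.3% of all genes. Timp2 was at least 2-fold below input on the scaled reads plus 5 in mK4 (6.11% of all genes), in mK3 (5.36%) and so in both (0.93%). By CpG content of the start, Timp2 belongs to the second richest group of genes, in which summed H3K27 was 0.852 of the input share in mK4 and 0.866 in mK3. Timp3 had nearly the same CpG ratio (0.714, beside 0.718 for Timp2) but falls just across the border between groups. It belongs to the middle group, with 1.01 in mK4 and 0.994 in mK3. The part of base composition in these values was not tested.

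Mmp13 and Ptx3 were marked by H3K27 in mK4 beside low inputs there. At Mmp13, H3K27 reads were 35 in mK4 and 22 in mK3, and input reads 8 in mK4 and 18 in mK3. The H3K27 share was 1.96-fold higher in mK4 (1.12 to 3.51) while the input share was 2.79-fold lower (1.16 to 7.43), and relative to input H3K27 was 5.39-fold higher in mK4 (1.85 to 17). Its H3K27 ratio was 2.64-fold that of its 10 neighbours on chromosome 9 (1.45 to 4.88). The input of the same neighbours had a ratio of 0.671 (0.542 to 0.829). Mmp13 had 0.534 times that input ratio, with an interval of 0.196 to 1.33 that includes 1. At Ptx3 H3K27 was 3.21-fold over input in mK4 (1.04 to 13.2) and 0.525-fold in mK3 (0.252 to 1.09), and the H3K27 reads themselves had a ratio between the lines of 1.16 (0.548 to 2.44). Relative to input, the H3K27 interval between the lines lay above 1 at 2 of the 10 genes, Mmp13 and Ptx3 (3.57% of all genes), and below 1 at 0 (3.73%).

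Mmp11 had 4 H3K27 reads in mK4, the fewest of the 10 genes there, against 17 in mK3 (3.45-fold lower, 1.12 to 14.1), with 9 input reads in mK4 and 16 in mK3. Its neighbours on chromosome 10 had an H3K27 ratio of 1.13 (0.907 to 1.39), and Mmp11 lay 3.87-fold below them (1.23 to 16.1). Relative to its own input, the ratio between the lines was 0.652 (0.122 to 2.93), an interval that includes 1, and with own input subtracted the log2 ratio was -0.20, against -1.09. It was marked in neither line. For Mmp9, H3K27 reads were 51 in mK4 and 44 in mK3 (1.43-fold, 0.936 to 2.19). For Mmp3 they were 11 in mK4 and 15 in mK3, and 7 input reads in each line leave a wide interval (1.26-fold over input in mK4, 0.447 to 3.84).

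**Figure D4:**
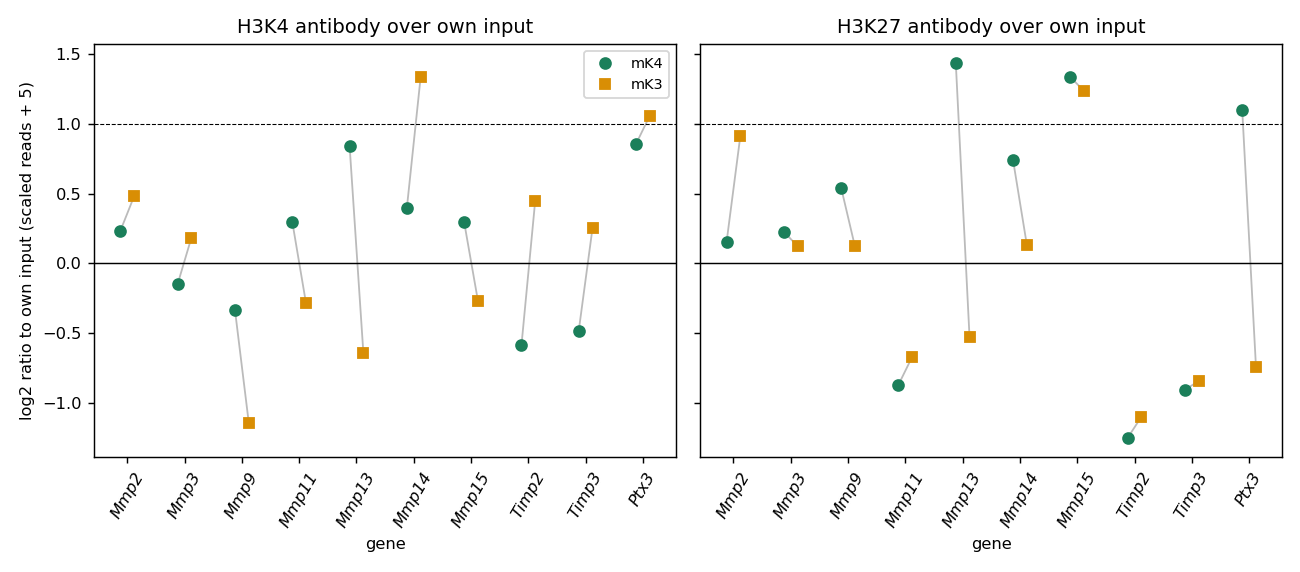
Log2 ratio of scaled ChIP reads plus 5 to the line's own input plus 5 at the 10 genes, for the H3K4 antibody (left) and the H3K27 antibody (right), with mK4 as green circles and mK3 as orange squares. The dashed line marks the 2-fold rule for a marked gene. Mmp15 lies above it for H3K27 in both lines (1.34 in mK4 and 1.23 in mK3), and Timp2 lies lowest (-1.25 in mK4 and -1.10 in mK3).

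In the input, 2 of the 10 genes, Mmp13 and Ptx3, were at least 2-fold lower in mK4, as were 6.2% of all genes, and 0 were at least 2-fold higher, against 7.26%. Their counting intervals were the only 2 below 1 (7.59% of all genes), and 0 lay above 1 (6.97%). These are the same 2 genes whose H3K27 over input differed in sign between the lines. Mmp3 and Mmp13 lie in a run of 10 Mmp genes on chromosome 9 (Mmp7, Mmp20, Mmp27, Mmp8, Mmp10, Mmp1a, Mmp3, Mmp1b, Mmp12 and Mmp13). Summed over the run, H3K4 had 160 reads in mK4 and 169 in mK3 (ratio 0.789, 0.632 to 0.986), and the input 124 in mK4 and 114 in mK3 (0.876, 0.674 to 1.14). H3K27 had 161 reads in mK4 and 258 in mK3 (ratio 0.769, 0.628 to 0.94). The ratio of the whole chromosome was 0.807 for H3K4, 0.801 for H3K27 and 0.806 for input. Within the run Mmp13 was the only gene with an H3K27 log2 ratio above 0. Mmp1a and Mmp1b are close paralogs, and their counts depend on how shared reads were placed.

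Among the other Mmp genes, 16 were measured and 0 were called for H3K4, with a median log2 ratio of -0.32 and 11 below 0. For H3K27 the median was -0.31 and 1 was called lower, Mmp7, against 0.934% of all genes. Mmp7 had 2 H3K27 reads in mK4 and 11 in mK3, with 7 input reads in mK4 and 1 in mK3. The call thus rests on a single input read in mK3. The 24 Adam and Adamts genes had H3K4 and H3K27 medians of -0.14 and -0.08 with none called. Adamts12, marked in neither line, had far more reads in mK4 in all 3 kinds of library, with 849 H3K4 reads in mK4 and 69 in mK3, 1124 H3K27 reads in mK4 and 80 in mK3, and 454 input reads in mK4 and 36 in mK3. Its input log2 ratio between the lines was 3.24, as was that of the 10 genes on each side of it. Its H3K27 over input in mK4 was 0.986 on the log2 scale, just under the cut for a marked gene. With Adamts12 in the sum, H3K4 over the 24 genes was 1.44-fold higher in mK4 (1.34 to 1.54), H3K27 1.88-fold (1.76 to 2.02) and input 1.47-fold (1.33 to 1.61). Adamts17 was marked by H3K27 in both lines (80 reads in mK4 and 54 in mK3, with 16 input reads in mK4 and 10 in mK3). Of 5 other pentraxin genes none was called. Nptx2, marked in neither line, had more reads in mK4 in every kind of library, with 57 H3K4 reads in mK4 and 10 in mK3, 55 H3K27 reads in mK4 and 24 in mK3, and 38 input reads in mK4 and 5 in mK3. Nptx1, a neuronal pentraxin, was marked by H3K27 in both lines (89 reads in mK4 and 136 in mK3, with 26 input reads in mK4 and 20 in mK3). Of the 6 genes whose products work with Ptx3 in hyaluronan matrix, such as Tnfaip6 and Has2, none was called and none was marked.

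The AP-1 genes Jun and Junb, whose products act on several Mmp promoters, were marked by H3K4 in both lines. Jun had 177 reads in mK4 and 204 in mK3, with 31 input reads in mK4 and 45 in mK3, and Junb had 163 in mK4 and 114 in mK3, with 40 input reads in mK4 and 23 in mK3. Neither was called between the lines, nor were the other 9 of the 11 regulator genes. In this list H3K4 marked 2 genes in mK4, against 3.69% of all genes, and 3 in mK3, against 4.94%. The AP-1 genes Fos, Fosl1 and Fosl2 were marked by H3K4 in neither line. Among the marker genes of other cell types, 1 was called between the lines, the endothelial cadherin gene Cdh5, with 20 H3K27 reads in mK4 and 65 in mK3 and 21 input reads in mK4 and 12 in mK3. Of 12 matrix substrate genes none was called, and Acan, which encodes the cartilage proteoglycan aggrecan, was marked by H3K27 in both lines (86 reads in mK4 and 68 in mK3, with 16 input reads in mK4 and 11 in mK3).

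Likeness to Mmp14 and Ptx3 was measured over the 3 log2 ratios between the lines, for H3K4, H3K27 and input, as the straight distance to each of 10227 genes with a mean of at least 20 scaled reads. The 3 genes nearest to Mmp14 were Colec12, Dse and Prdm6, at distances of 0.106, 0.18 and 0.222. Dse had 34 H3K4 reads in mK4 and 87 in mK3. Nearest to Ptx3 were Ifi202b (0.352), 9030612E09Rik (0.555) and Zfp503 (0.624). Zfp503 had 68 H3K4 reads in mK4 and 231 in mK3, with 32 input reads in mK4 and 59 in mK3.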

How the data were processed

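Each of the 6 deposited files lists 22088 gene rows, and per the file headers the authors' values per gene are its read count, its RPKM and the length of its exons. The deposited counts are whole reads, used as they stand. The deposited RPKM values equal the counts over exon length and over the file's own count total, so file totals sum exon reads only and do not give sequencing depth, and signal upstream of the first exon is not counted. Per the submitters' processing notes, mm9 was the build. How reads were aligned, by strand or not, and whether duplicates were removed is not stated in the labels or headers.

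Of rows that shared a symbol, the one with the highest mean ChIP count was used (21937 genes remain). All counts were scaled to the mean library total (513622), and log2 ratios used a pseudocount of 5, which understates differences of genes with few reads. Intervals are exact Clopper-Pearson intervals of a share of reads, and conditional exact odds ratio intervals for ratios of ratios. They cover counting error only. With 1 library per group no test was run. The rule for calls was run on simulated counts with counting error only, differences far above 2-fold and equal input shares in both lines. That run cannot tell how the rule performs near 2-fold, at low counts or where the inputs differ. Neighbours were ordered by a RefSeq table of GRCm38.p6 (19322 genes matched by symbol, 2301 by synonym, 314 unmatched). The genes and lists were chosen with earlier results of these data known. The results of 2 of the lists are not reported here. All 10 genes are named, and of the lists reported those called for H3K4 or H3K27, or marked in both lines, up to 6 a list by size of the ratio, with Colec12, Dse, Prdm6 and the others nearest in pattern. Some list genes outside this rule are named too. Examples are Foxd1 and Tek, marked by H3K4 in mK4 alone, though Foxd1 lay near the cut in both lines. Others are Adamts12 and Nptx2, with more reads in mK4 in every kind of library. Alternatives were other scaling, pseudocounts of 1 and 20, a minimum summed count of 30, subtraction of input and exon length as background. Python 3.11.15, numpy 2.4.6, pandas 2.3.3, scipy 1.17.1 and matplotlib 3.10.9 were used.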

Additional observations from a re-analysis of the deposited data

Results flagged for a closer look

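At Mmp13 and Ptx3, H3K27 lay above input in mK4 and below input in mK3. On the log2 scale of scaled reads plus 5, H3K27 over input was 1.44 in mK4 and -0.53 in mK3 at Mmp13, and 1.10 in mK4 and -0.74 in mK3 at Ptx3. The difference between the lines was not tested, since each line has 1 library of each kind. Beside it, input reads were 8 in mK4 and 18 in mK3 at Mmp13, and 4 in mK4 and 17 in mK3 at Ptx3, and the part of these low inputs in the result was not tested.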

How the results depend on the processing

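Low counts are one limit, since the inputs of the 10 genes hold between 4 and 59 reads, beside the lack of replicates. Median of ratios scaling changed no count of called or marked genes among the 10. With a pseudocount of 1, 2 genes were marked by H3K4 in mK4 (Mmp13 and Ptx3, against 0) and 2 by H3K27 in mK3 (Mmp2 and Mmp15, against 1). At the same setting 3 genes were at least 2-fold lower in the mK4 input (Mmp11, Mmp13 and Ptx3, against 2). With a pseudocount of 20, H3K4 was called at 1 gene (Mmp14), the input at 0, and marked genes numbered 0 for H3K27 in mK4, 1 for H3K4 in mK3 (Mmp14) and 0 for H3K27 in mK3. A minimum summed count of 30 left 0 genes called in the input and, among those marked by H3K27 in mK4, 2 (Mmp13 and Mmp15) of 3, since Ptx3 fell below the minimum. With each gene's own input subtracted, H3K4 was called at 0 genes and H3K27 at 2 (Mmp13 and Ptx3, both higher in mK4), and the H3K4 log2 ratios became -0.94 at Mmp14 and -0.20 at Ptx3. With the input of 10 or of 5 neighbours on each side subtracted, Mmp14 and Ptx3 stayed called for H3K4 and 1 gene, Mmp13, was called higher for H3K27. With exon length as background, H3K27 marked 0 genes in mK4 and 0 in mK3. H3K4 then marked 3 genes in mK3 (Mmp14, Timp3 and Ptx3, against 2). For all genes, the count called for H3K4 was 532 higher and 524 lower with a pseudocount of 1, 10 and 5 with 20, 343 and 511 with own input subtracted, and 311 and 106 with exon length as background, against 93 and 86. For H3K27 it was 660 and 756, 28 and 17, 598 and 792, and 322 and 84 in the same order, against 195 and 205. The cause was not tested. Genes marked over the whole table numbered 2111 for H3K4 in mK4, 3850 for H3K27 in mK4, 2556 for H3K4 in mK3 and 3967 for H3K27 in mK3 with a pseudocount of 1, and 92, 349, 139 and 388 with 20, against 810, 1988, 1083 and 2251. No ratio of the 10 genes called with the main settings changed its direction under these alternatives, but uncalled ones did. With own input subtracted, H3K4 at Mmp2 was -0.25, against 0.42. With the input of 10 neighbours on each side subtracted, H3K4 at Mmp11 was 0.21, against -0.30. No paired analysis was possible because each group has 1 library and no test was run.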
